A study of Mus musculus with 16 samples.

Results

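Interferon-stimulated genes are the genes that cells switch on when interferon binds its receptors. A list of 38 of them was followed in mouse gastrocnemius muscle and in C2C12 cells, and each was read through the probe sets that the array annotation gives to its symbol. A probe set is a group of probes that together give 1 value, and a gene with several was read by the brightest over the 12 muscle arrays. In all 37 of the 38 had a probe set, out of 18194 genes measured, with 61 probe sets between them. Ifi44 was not analysed here. The genes are picked by name, and the list was drawn up with earlier results of these data known.

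Type I interferons act through the receptor chains Ifnar1 and Ifnar2 and the kinases Jak1 and Tyk2, which activate a complex that holds Stat2 and Irf9. This complex binds the interferon-stimulated response element, a pair of GAAA blocks found near the start of many antiviral genes. Interferon gamma acts through Ifngr1 and Ifngr2, and its response is read at the gamma-activated site. The induced proteins degrade or trap viral RNA, coat pathogen vacuoles, attract T cells, and include sensors and transcription factors that feed back on the pathway. In muscle these genes are best known from inflammatory myopathies, where fibres and infiltrating cells both express them.

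The promoters of the members were read first, because many genes of this kind share a response element there. RefSeq promoter windows on build GRCm38.p6, each of 300 bases with 250 before and 50 after the start site, were at hand for 27 of the 37 members. The core of the response element, GAAA then any 2 bases then GAAA, was searched on both strands and is called the GAAA pair here. It was found in 14 of these 27 genes (51.9%), against 3.99% of 27025 genes and 3.44% of 32851 windows. The gamma-activated site core TTCNNNGAA was found in 8 of 27 (29.6%), against 9.55% of genes and 8.3% of windows. A match of one core overlapped a match of the other at 1 place. Of the 18 members with a window that passed the test in transgenic mdx against wild-type muscle, described later, 13 held the GAAA pair, and of the other 9 it was held by 1. A match in such a window is a description of its letters and not a measured binding site.

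The 250 bases before the start site are shown for Cxcl10, Ifit1, Ifit3 and Rsad2, since these 4 had the largest differences in that comparison among members with a GAAA pair there. They lie at chr5:92348890-92349139 (minus strand), chr19:34640639-34640888 (plus strand), chr19:34583279-34583528 (plus strand) and chr12:26456453-26456702 (minus strand). Each is written 5′ to 3′ on the strand of its gene, and capitals mark a GAAA pair on either strand, which reads as a pair of TTTC blocks where it lies on the opposite strand.
Cxcl10: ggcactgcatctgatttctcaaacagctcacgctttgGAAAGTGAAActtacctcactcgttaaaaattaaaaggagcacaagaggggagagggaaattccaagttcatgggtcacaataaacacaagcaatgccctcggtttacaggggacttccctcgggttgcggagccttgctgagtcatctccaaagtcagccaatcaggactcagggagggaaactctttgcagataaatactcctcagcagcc
Ifit1: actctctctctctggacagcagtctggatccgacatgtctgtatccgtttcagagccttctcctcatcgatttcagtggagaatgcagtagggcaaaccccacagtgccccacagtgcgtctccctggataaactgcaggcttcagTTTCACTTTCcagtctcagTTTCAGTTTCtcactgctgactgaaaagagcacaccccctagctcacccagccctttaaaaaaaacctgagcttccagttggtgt
Ifit3: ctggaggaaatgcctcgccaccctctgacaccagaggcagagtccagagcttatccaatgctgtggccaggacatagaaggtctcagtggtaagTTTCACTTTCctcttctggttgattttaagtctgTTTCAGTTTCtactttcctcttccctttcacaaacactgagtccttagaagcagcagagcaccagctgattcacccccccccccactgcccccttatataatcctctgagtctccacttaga
Rsad2: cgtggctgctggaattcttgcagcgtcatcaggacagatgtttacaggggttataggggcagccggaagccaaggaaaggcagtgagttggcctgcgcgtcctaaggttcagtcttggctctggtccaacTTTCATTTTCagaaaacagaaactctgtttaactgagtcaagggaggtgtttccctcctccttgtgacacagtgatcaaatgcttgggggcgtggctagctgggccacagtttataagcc
Ifit1 and Ifit3 each hold 2 matches on the opposite strand, first bases at -104 and -85 from the start site in Ifit1 and at -156 and -122 in Ifit3. Cxcl10 and Rsad2 hold 1 match each, at -213 and -120.

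The study asked what overexpression of Galgt2, the glycosyltransferase gene B4galnt2, does to dystrophin-deficient mdx muscle, and its 16 Affymetrix arrays fall into 3 sets. The first holds muscle of 2-month-old male mice, 2 arrays a group: C57BL/6J wild type, C57BL/10J mdx, C57BL/6J carrying the Galgt2 transgene, and mdx with the transgene on a C57BL/10J x C57BL/6J background. The second holds 2 arrays of C57BL/10J mdx muscle treated with AAV-Galgt2, an adeno-associated virus carrying the gene, and 2 of the opposite leg's muscle treated with phosphate-buffered saline (PBS), also from 2-month-old males. The third holds 1 array each of the mouse myoblast line C2C12 and of C2C12 stably carrying Galgt2, as myoblasts and as myotubes. The labels do not name the promoter of the transgene, and mdx and wild-type mice differ in strain, so strain and dystrophin loss cannot be told apart. Transgenic mdx mice differ in background from every other group of the set. In comparisons with them, and in the interaction of transgene and mdx, background cannot be told apart from transgene or mutation either. Nothing in them says that the 2 arrays of a group are separate mice, so the p-values cover no more than the spread among these samples, which may be technical. In whole muscle, fewer cells of a type and less RNA per cell cannot be told apart.

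B4galnt2 separated the muscle groups as labelled, and Dmd separated mdx from wild type, but Dmd in transgenic mdx muscle was intermediate and did not place that group with mdx. B4galnt2, on the log2 scale of array intensity used throughout, read 13.17 to 13.34 in the 4 transgenic arrays and 10.54 and 10.56 after AAV-Galgt2, against 3.86 to 7.78 in the other muscle arrays, the highest of these being mdx replicate 2. Dmd, dystrophin, was lower in mdx than in wild type by 2.82 ± 0.20 (SE), and transgenic mdx muscle, at 9.86 and 9.87, lay between mdx (8.52 and 8.13) and wild type (11.14 and 11.16), higher than mdx by 1.54 ± 0.20 (adjusted p = 0.00305, limma). All 10 skeletal muscle fibre markers lay above the array median on each muscle array. Array medians of intensity ran from 57.69 to 63.95 in the first set and from 25.35 to 25.71 in the second, so levels were compared within a set. The precision is limited by the number of arrays. Transgenic mdx replicate 2 had the largest Gapdh 3′ minus 5′ difference, 1.23 against 0.18 to 0.48 on the other arrays of its set, and values without it are given beside the counts for that group.

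In mdx muscle 9 of the 37 genes were higher than in wild type and 0 were lower (limma, Benjamini-Hochberg over all genes, adjusted p under 0.05), where 3.75% of all genes passed as higher and 1.69% as lower. These 9 were the antiviral effectors Mx1, Oas1a and Oas3, the sensor Zbp1, the transcription factors Irf1, Irf7 and Stat2, the chemokine Cxcl10 and the receptor chaperone Rtp4. The median log2 difference over the 37 was 0.92, against 0.01 over all genes, and 34 of 37 lay above 0 (50.8% of all genes). Mx1, Irf1 and Rtp4 passed in all 12 fits that dropped a single array. The other 6 each lost the call without at least 1 array, with differences of 0.91 to 3.00 in those fits. Of the 9 calls, 3 were kept without wild-type replicate 1, 5 without wild-type replicate 2, 5 without mdx replicate 1 and 6 without mdx replicate 2.

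In transgenic muscle, which has dystrophin, 9 of 37 were also higher than in wild type and 0 lower, where 2.12% of all genes passed as higher and 1.03% as lower. Of the 9, Cxcl10, Mx1, Rtp4 and Stat2 had also passed in mdx, and Ifih1, Ifit1, Oas2, Oasl1 and Rsad2 had not. The median difference was 0.85, against -0.05 over all genes, and 35 of 37 lay above 0 (44.6% of all genes). Both comparisons use the same wild-type arrays. Cxcl10 passed in all 12 fits. The other 8 lost the call without at least 1 array, with differences of 0.95 to 3.13 in those fits, and 1 and 3 of the 9 calls were kept when wild-type replicate 1 or 2 was dropped, 2 without transgenic replicate 1, 6 without transgenic replicate 2, and 6 without 1 of the AAV-Galgt2 arrays, whose spread is part of the common variance estimate. Transgenic replicate 1 was above replicate 2 in 30 of the 37 genes, by a median of 0.57, against 54.2% of all genes.

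Set directly against each other, transgenic and mdx muscle differed in 2 members, a comparison added after the data were seen. Ifih1 was higher in transgenic muscle by 2.40 ± 0.43 (adjusted p = 0.0189) and Irf1 was lower by 1.16 ± 0.20 (adjusted p = 0.0168), where 1.82% of all genes passed as higher and 1.56% as lower. A count of 1 of 37 in each direction does not set the members apart from all genes. The median difference over the 37 was -0.05, against -0.08 over all genes. Ifih1 lost the call when mdx replicate 2 was dropped (2.50) or transgenic replicate 1 (1.63), and Irf1 without either transgenic array (-1.17 and -1.15). The remaining genes called against wild type in one of the groups and not in the other were not shown to differ between them.

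Transgenic mdx muscle had the highest levels of most members. Against wild type 27 of 37 were higher and 0 lower, where 4.91% of all genes passed as higher and 2.36% as lower. The median difference was 2.09, more than a 4-fold ratio, against 0.01 over all genes, and 36 of 37 lay above 0 (51% of all genes). In 33 of 37 both transgenic mdx arrays lay above both wild-type arrays (27.8% of all genes). The 27 included every gene that had passed in mdx or in transgenic muscle except Irf1, together with 14 that had passed in neither. Leaving out wild-type replicate 1 or 2 kept 18 and 17 of the 27 calls, and leaving out transgenic mdx replicate 1 or 2 kept 20 and 23. Without transgenic mdx replicate 2 the shares of all genes that passed were also smaller, 2.24% as higher and 0.973% as lower, and the members' median was 2.22. In all 16 members passed in every one of the 12 fits, and the other 11 had differences of 0.87 to 3.86 in the fits that lost them.

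The same arrays set against mdx muscle gave 13 members higher and 0 lower, where 3.97% of all genes passed as higher and 2.11% as lower. They were Mx2, Ifit1, Ifit2, Ifit3, Oas2, Rsad2, Gbp3, Irgm1, Iigp1, Ifih1, Cxcl10, Usp18 and Rtp4. The median difference was 0.88, against -0.01 over all genes, and 32 of 37 lay above 0 (49% of all genes). Gbp3, Iigp1, Usp18 and Rtp4 each lost the call without at least 1 array, with differences of 0.69 to 2.29 there, and the other 9 kept it in all 12 such fits. Dropping mdx replicate 2 kept 9 of the 13 calls, and dropping transgenic mdx replicate 1 or 2 kept 10 and 12. Without transgenic mdx replicate 2 the shares of all genes were 1.2% as higher and 0.506% as lower, and the members' median was 1.27 with 34 of 37 above 0.

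Against transgenic muscle without the mdx mutation, all 37 members lay above 0 in transgenic mdx muscle (60.9% of all genes), with a median difference of 1.03 against 0.07 over all genes, and 0 passed, where 0.0495% of all genes passed as higher and 0.0055% as lower. At an unadjusted p under 0.05, 22 members were higher and 0 lower (2.75% and 1.14% of all genes, limma). Ifit3 came closest, at 2.01 ± 0.30 (adjusted p = 0.0516), and it passed without transgenic mdx replicate 2. The interaction of transgene and mdx asks whether the transgene's difference is the same with and without the mdx mutation. It gave 0 calls among the members, and 0.022% of all genes passed in each direction. At an unadjusted p under 0.05 it was positive for Mx2, Ifit2, Ifit3, Gbp3 and Iigp1 and negative for Oas1a and Irf1, 5 and 2 of 37, against 6.02% and 5.89% of all genes. Over the members the interaction's median was -0.01 with 18 of 37 above 0, and without transgenic mdx replicate 2 it was 0.34 with 23 of 37 above 0.

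The highest and the lowest group were the same for most of the list, and mdx and transgenic muscle had no common order, with 18 of 37 members above 0 in transgenic against mdx. Transgenic mdx muscle had the highest group mean in 32 of 37 members and mdx in 5, and wild type had the lowest in 32, mdx in 3 and transgenic in 2. Both transgenic mdx arrays lay above the other 6 arrays of the set in 20 members (5.86% of all genes), and both wild-type arrays lay below the other 6 in 22 (9.83% of all genes). Both mdx arrays lay above the rest for Samhd1 and Irf1 (2 of 37, against 8.83% of all genes) and below the rest for Iigp1 (7.69% of all genes). Within transgenic mdx muscle replicate 1 was above replicate 2 in 35 of 37 members, by a median of 0.72, against 41.4% of all genes, so the 2 arrays of that group differ in the same direction nearly throughout the list. In mdx muscle replicate 1 was above replicate 2 in 19 of 37.

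**Figure D1:**
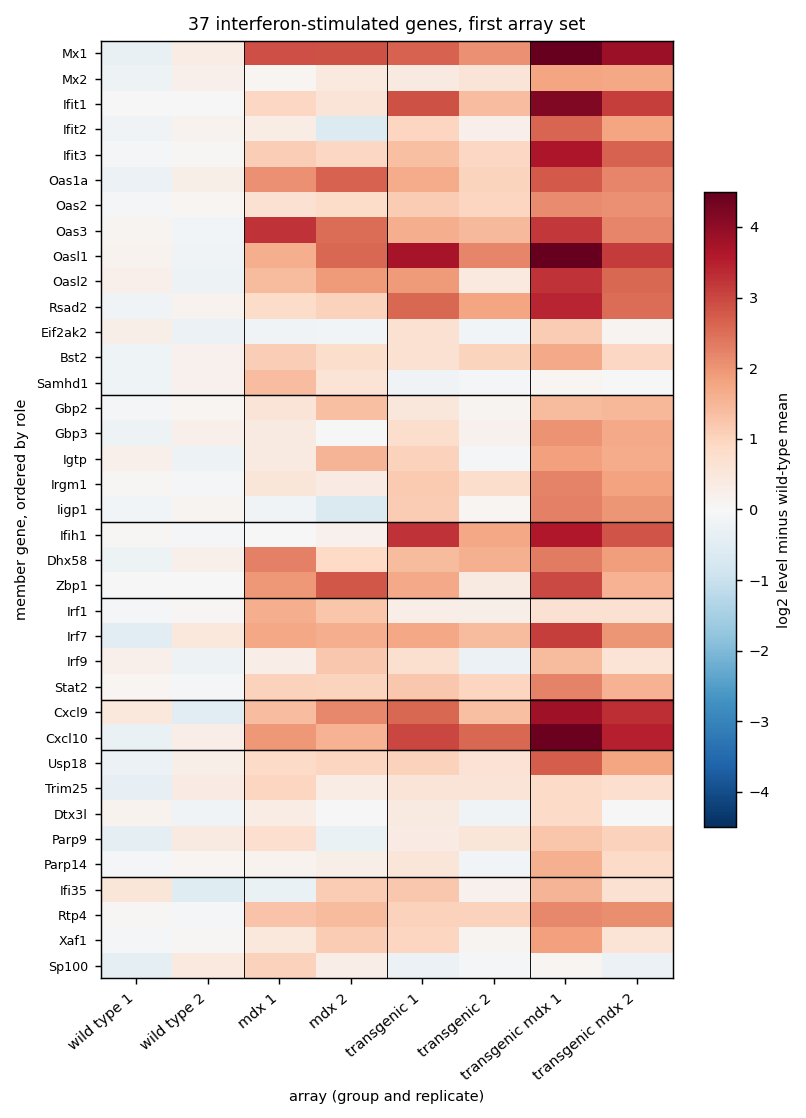
Log2 level of the 37 genes (rows, grouped by role with black lines) on the 8 arrays of the first set (columns), each minus the mean of the 2 wild-type arrays; red is above and blue below that mean, and the colour scale is in log2 units. The transgenic mdx columns are the reddest in most rows, transgenic mdx replicate 1 is above replicate 2 in 35 of 37, and the row of Irf1 is reddest in the mdx columns.

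**Figure D2:**
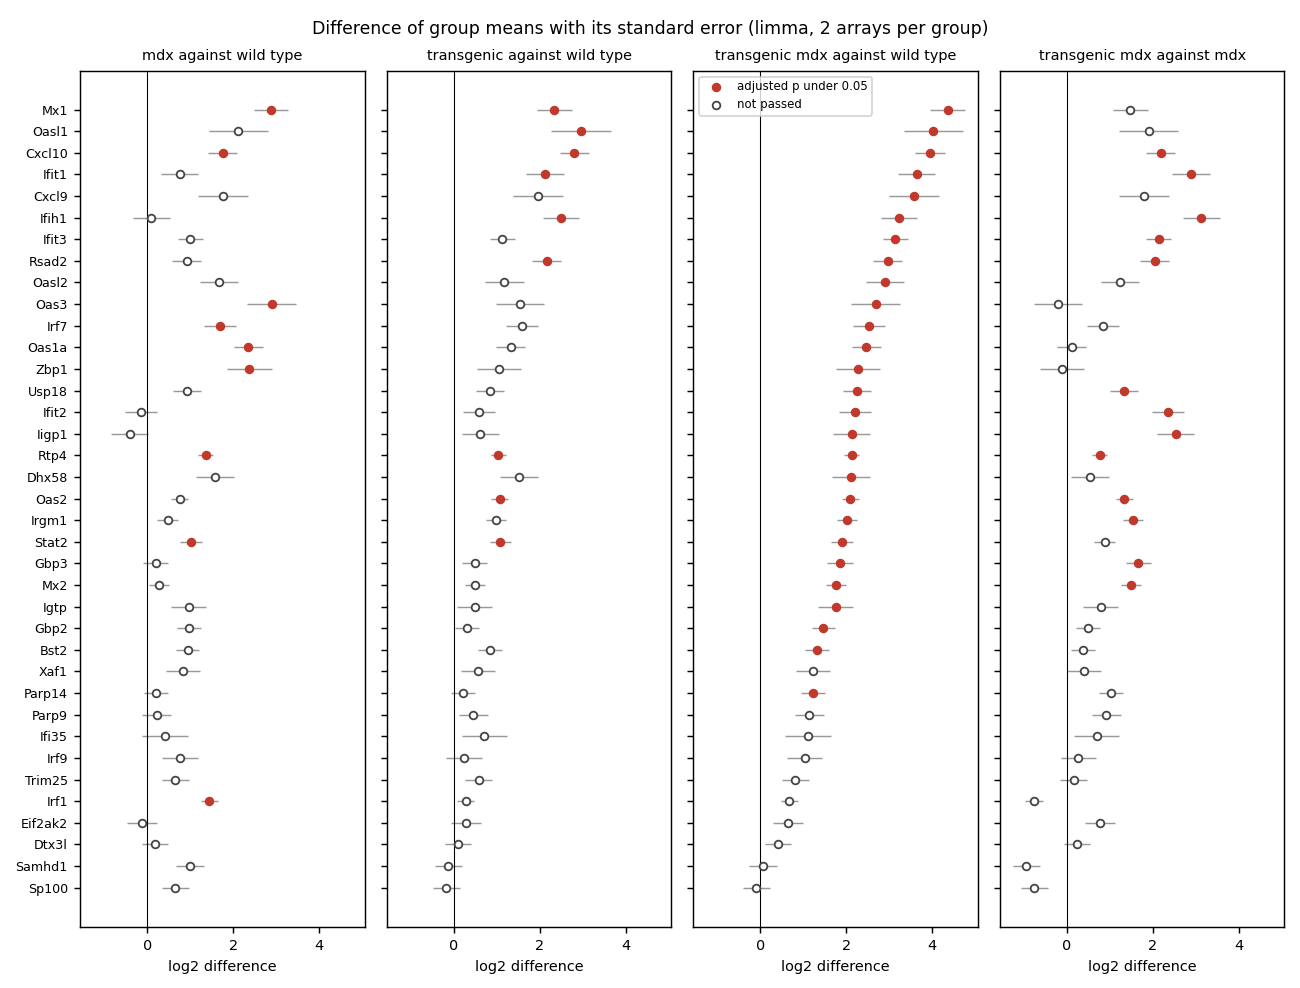
Log2 difference (x axis) of each of the 37 genes (y axis, ordered by transgenic mdx against wild type) in 4 comparisons of group means of 2 arrays; bars are standard errors from limma, filled points passed at an adjusted p under 0.05 and open points did not. From left to right 9, 9, 27 and 13 points are filled, and each filled point lies above 0.

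The 14 antiviral effectors included Mx1 and Oasl1, with the 2 largest differences of the list between transgenic mdx and wild type. In mdx 3 of them were higher, in transgenic 5, in transgenic mdx 12 against wild type and 6 against mdx, and 0 were lower in each. Of all genes 3.75%, 2.12%, 4.91% and 3.97% passed as higher in these comparisons, and the same shares apply to the other roles below. Mx1, a dynamin-like GTPase that blocks viral nucleoproteins, read 4.71 and 5.41 (wild type), 7.95 and 7.92 (mdx), 7.70 and 7.10 (transgenic) and 9.93 and 8.91 (transgenic mdx). The 4 groups did not overlap, with transgenic below mdx and transgenic mdx above both. Mx1 was higher by 2.88 ± 0.40 in mdx (adjusted p = 0.00513), by 2.34 ± 0.40 in transgenic (adjusted p = 0.0113) and by 4.36 ± 0.40 in transgenic mdx (adjusted p = 0.000244), each against wild type. Its relative Mx2 read 3.25 and 3.71, 3.58 and 3.92, 3.89 and 4.05, and 5.27 and 5.22 in the same order of groups. Mx2 stood apart in transgenic mdx muscle and overlapped between wild type and mdx, with 1.49 ± 0.23 against mdx (adjusted p = 0.00674) and 0.27 ± 0.23 for mdx against wild type, and it lay below the median of all genes on each array.

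The Ifit proteins bind viral RNA that lacks host cap marks. Ifit1 read 7.82 and 7.85 (wild type), 8.76 and 8.41 (mdx), 10.69 and 9.22 (transgenic) and 11.99 and 10.96 (transgenic mdx), so each group lay wholly above the one before. It was higher in transgenic than in wild-type muscle by 2.12 ± 0.44 (adjusted p = 0.0273) and in transgenic mdx than in mdx by 2.88 ± 0.44 (adjusted p = 0.00633), while mdx against wild type gave 0.75 ± 0.44 (adjusted p = 0.395). Ifit2 read 6.99 and 7.30 (wild type), 7.47 and 6.52 (mdx), 8.11 and 7.38 (transgenic) and 9.78 and 8.93 (transgenic mdx). Wild type and mdx overlapped, and transgenic mdx was higher than mdx by 2.36 ± 0.37 (adjusted p = 0.00726). Ifit3 read 7.29 and 7.41, 8.44 and 8.27, 8.69 and 8.27, and 11 and 10.00 in the same order. The mdx and transgenic arrays overlapped, with wild type below and transgenic mdx above both, and transgenic mdx against mdx gave 2.14 ± 0.30 (adjusted p = 0.00389).

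Rsad2, viperin, makes a nucleotide that ends viral RNA chains. It read 9.32 and 9.64 (wild type), 10.31 and 10.50 (mdx), 12.05 and 11.25 (transgenic) and 12.91 and 11.98 (transgenic mdx). Transgenic muscle was higher than wild type by 2.17 ± 0.34 (adjusted p = 0.00699) and transgenic mdx higher than mdx by 2.04 ± 0.34 (adjusted p = 0.00863), while its transgenic and transgenic mdx ranges overlapped.

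**Figure D3:**
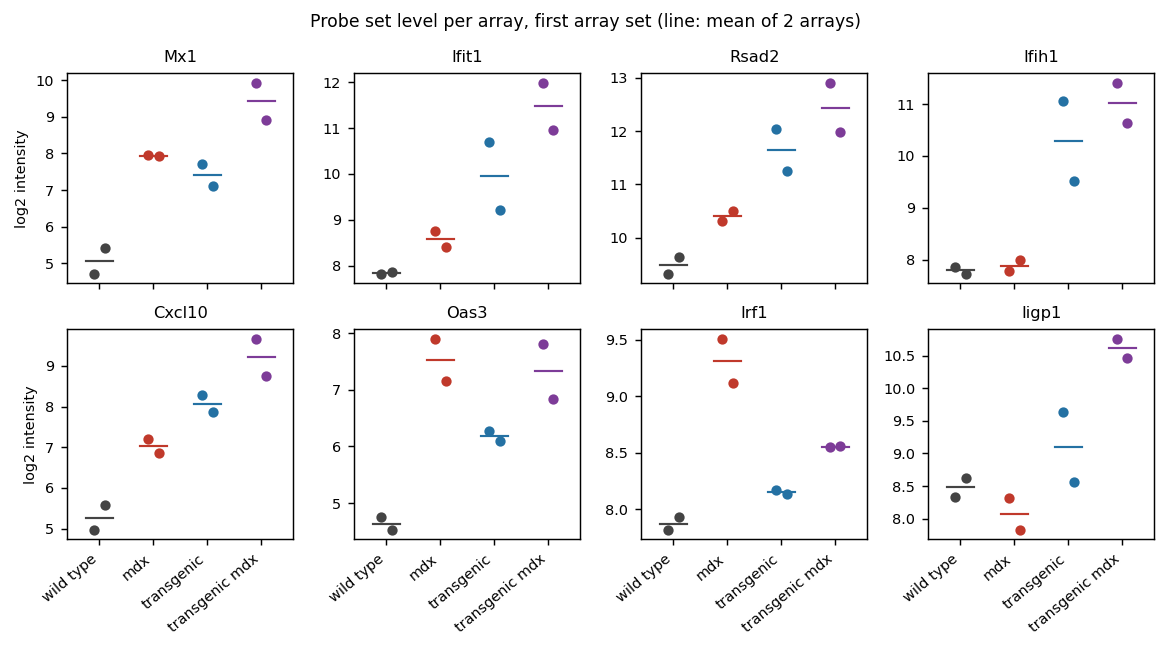
Log2 intensity (y axis) of 8 members on each array of the first set, by group (x axis); points are single arrays and lines are means of 2. Mx1, Ifit1, Rsad2 and Cxcl10 are lowest in wild type and highest in transgenic mdx muscle, Ifih1 is alike in wild type and mdx (7.73 to 7.99), Oas3 and Irf1 are high in mdx, and Iigp1 is lowest in mdx.

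The oligoadenylate synthetases, which switch on RNase L when they bind double-stranded RNA, split into different orders. Oas1a read 5.94 and 6.49 (wild type), 8.26 and 8.87 (mdx), 7.87 and 7.20 (transgenic) and 8.96 and 8.40 (transgenic mdx). Oas3 read 4.75 and 4.53, 7.90 and 7.16, 6.27 and 6.09, and 7.81 and 6.84 in the same order. For both genes the mdx and transgenic mdx arrays overlapped and lay above the transgenic arrays. In mdx against wild type Oas1a was higher by 2.35 ± 0.34 (adjusted p = 0.00565) and Oas3 by 2.89 ± 0.57 (adjusted p = 0.0182), and transgenic mdx against mdx gave 0.11 ± 0.34 and -0.20 ± 0.57 (adjusted p = 0.912 and adjusted p = 0.903). Oas2 read 6.17 and 6.36 (wild type), 6.95 and 7.09 (mdx), 7.42 and 7.24 (transgenic) and 8.40 and 8.32 (transgenic mdx), with no overlap between any of the groups. It was higher by 1.07 ± 0.20 in transgenic than in wild-type muscle (adjusted p = 0.0164) and by 1.34 ± 0.20 in transgenic mdx than in mdx muscle (adjusted p = 0.0056).

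The synthetase-like gene Oasl1, which lacks the enzyme activity and restrains Irf7 translation, differed by over 1 log2 unit between the arrays of both transgenic groups. It read 5.03 and 4.70 (wild type), 6.51 and 7.46 (mdx), 8.59 and 7.06 (transgenic) and 9.79 and 8.0 (transgenic mdx). Each group lay above wild type, transgenic mdx lay above mdx, and the transgenic range overlapped both. Oasl1 was higher by 2.96 ± 0.69 in transgenic than in wild-type muscle (adjusted p = 0.0482) and by 4.03 ± 0.69 in transgenic mdx muscle (adjusted p = 0.00696), while mdx gave 2.12 ± 0.69 (adjusted p = 0.107). Oasl2 was higher by 2.91 ± 0.44 and Bst2, tetherin, which holds virions at the cell surface, by 1.32 ± 0.28 in transgenic mdx against wild type, the 1 comparison in which either passed (adjusted p = 0.00349 and adjusted p = 0.0177). Eif2ak2, the RNA-activated kinase PKR, and Samhd1, which breaks down nucleotides, did not pass anywhere. Samhd1 had its 2 highest values in mdx muscle, at 10.27 and 9.50, against 8.71 to 9.07 on the other 6 arrays of the set, a difference from wild type of 1.00 ± 0.32 (adjusted p = 0.102).

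The 5 interferon-inducible GTPases act on membranes of vacuoles that hold pathogens, and interferon gamma is their best-known inducer. In mdx and in transgenic muscle 0 of 5 passed against wild type, with 2 and 1 at an unadjusted p under 0.05 (11.7% and 7.94% of all genes were higher at that level, limma), whereas 5 of 5 were higher in transgenic mdx against wild type and 3 of 5 against mdx. Iigp1 read 8.34 and 8.62 (wild type), 8.32 and 7.83 (mdx), 9.64 and 8.56 (transgenic) and 10.76 and 10.46 (transgenic mdx). Its mdx arrays were the lowest of the set and its transgenic mdx arrays the highest, and transgenic mdx was higher than mdx by 2.54 ± 0.43 (adjusted p = 0.00928) and than wild type by 2.13 ± 0.43 (adjusted p = 0.0144). Gbp3, a guanylate-binding protein, read 7.25 and 7.73, 7.91 and 7.46, 8.27 and 7.68, and 9.50 and 9.20 in the same order, with transgenic mdx above the rest and the other 3 groups overlapping. Irgm1, a regulator of the other GTPases, read 7.28 and 7.14, 7.77 and 7.59, 8.38 and 8.01, and 9.43 and 9.01, each group above the one before. Against mdx, Gbp3 was higher by 1.66 ± 0.29 (adjusted p = 0.0118) and Irgm1 by 1.54 ± 0.23 (adjusted p = 0.00633). Gbp2 and Igtp passed in transgenic mdx against wild type, at 1.47 ± 0.28 and 1.75 ± 0.40 (adjusted p = 0.0102 and adjusted p = 0.027).

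Of the 3 nucleic acid sensors, Ifih1 differed most between the groups. Ifih1, also called MDA5, senses long double-stranded RNA and signals to interferon production. It read 7.86 and 7.73 (wild type), 7.79 and 7.99 (mdx), 11.06 and 9.52 (transgenic) and 11.41 and 10.63 (transgenic mdx). Both groups with the transgene lay more than 1 log2 unit above both without it, and wild type and mdx overlapped. The differences were 2.49 ± 0.43 for transgenic against wild type (adjusted p = 0.0108), 3.13 ± 0.43 for transgenic mdx against mdx (adjusted p = 0.00354) and 0.09 ± 0.43 for mdx against wild type (adjusted p = 0.944). The first of these still passed without transgenic replicate 1, and did not without wild-type replicate 1 or 2, at 2.56 and 2.42.

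Zbp1 followed another order. This sensor of Z-form nucleic acids, which can start necroptosis, read 5.63 and 5.56 (wild type), 7.53 and 8.40 (mdx), 7.31 and 5.99 (transgenic) and 8.58 and 7.15 (transgenic mdx). It was higher in mdx by 2.38 ± 0.52 (adjusted p = 0.0273), and transgenic mdx against mdx gave -0.11 ± 0.52 with overlapping arrays. Dhx58, also called LGP2, which tunes Ifih1 signalling, passed in transgenic mdx against wild type at 2.10 ± 0.44 (adjusted p = 0.0181). Its probe set lay below the median of all genes on each array of the first set, and the other 2 probe sets of Dhx58, fainter still, gave 0.36 and -0.13. The second probe set of Zbp1 gave 0.79 where the first gave 2.27. Over the 16 members with several probe sets, all sets of a gene had the same direction in that comparison in 14, the exceptions being Dhx58 and Dtx3l. Agreement was lower in several other comparisons. It held in 11 of 16 for transgenic against wild type, 11 for transgenic mdx against mdx and 13 for transgenic mdx against transgenic. It held in 10 for AAV-Galgt2 against PBS, 6 for the interaction, and 15 each for mdx against wild type and transgenic against mdx.

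Among the 4 transcription factors, Irf1 had a pattern of its own. Irf1, which drives genes of the gamma response and of antigen presentation, read 7.82 and 7.93 (wild type), 9.51 and 9.12 (mdx), 8.17 and 8.14 (transgenic) and 8.55 and 8.56 (transgenic mdx). None of the groups overlapped, with mdx highest and transgenic mdx next. It was higher in mdx by 1.44 ± 0.20 (adjusted p = 0.00489), while transgenic mdx gave 0.68 ± 0.20 against wild type (adjusted p = 0.0694) and -0.76 ± 0.20 against mdx (adjusted p = 0.0513). That last value passed as lower in 4 other settings: after quantile normalization (-0.83, adjusted p = 0.0311), with log2(value + 32) (-0.71, adjusted p = 0.0207), with dim genes left out (-0.76, adjusted p = 0.0475) and with the mean of all probe sets (-0.76, adjusted p = 0.0363).

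Irf7, which amplifies type I interferon transcription, read 5.33 and 6.29 (wild type), 7.55 and 7.46 (mdx), 7.54 and 7.25 (transgenic) and 8.91 and 7.78 (transgenic mdx). Mdx and transgenic overlapped, and transgenic mdx lay above both. It was higher in mdx by 1.70 ± 0.38 (adjusted p = 0.0287) and in transgenic mdx by 2.54 ± 0.38 (adjusted p = 0.00286), and transgenic gave 1.59 ± 0.38 (adjusted p = 0.0512), each against wild type. Stat2, which enters the response complex with Irf9, read 6.2 and 5.99, 7.12 and 7.11, 7.32 and 7.05, and 8.32 and 7.67 in the same order. It was higher by 1.02 ± 0.25 in mdx, 1.08 ± 0.25 in transgenic and 1.90 ± 0.25 in transgenic mdx (adjusted p = 0.0439, adjusted p = 0.0469 and adjusted p = 0.00151). The first 2 Stat2 calls were kept in 4 and 2 of the 12 fits with an array left out, with differences of 0.91 to 1.22 in the rest, and its second, fainter probe set gave 0.25 in transgenic mdx against wild type. Irf9 did not pass in any comparison.

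The chemokines Cxcl9 and Cxcl10 draw T cells through the receptor Cxcr3. Cxcl10 read 4.97 and 5.57 (wild type), 7.21 and 6.85 (mdx), 8.29 and 7.86 (transgenic) and 9.67 and 8.76 (transgenic mdx). The 4 groups did not overlap, and each comparison of them passed except 2. It was higher by 1.76 ± 0.34 in mdx (adjusted p = 0.0172), by 2.81 ± 0.34 in transgenic (adjusted p = 0.00207) and by 3.95 ± 0.34 in transgenic mdx (adjusted p = 0.000165) against wild type, and by 2.19 ± 0.34 in transgenic mdx against mdx (adjusted p = 0.00674). Transgenic against mdx gave 1.05 ± 0.34 (adjusted p = 0.131) and transgenic mdx against transgenic 1.14 ± 0.34, which did not pass. Cxcl9 ranged from 5.31 to 6.29 in wild type to 9.11 to 9.63 in transgenic mdx muscle, a difference of 3.57 ± 0.58 (adjusted p = 0.00492), or 3.08 and no call without wild-type replicate 2.

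The 5 factors of ISG15, ubiquitin and ADP-ribose conjugation gave few calls, 0, 0, 1 and 2 in mdx, transgenic, transgenic mdx against mdx and transgenic mdx against wild type. Usp18, which removes ISG15 and damps the type I receptor, read 6.67 and 7.23 (wild type), 7.81 and 7.92 (mdx), 7.97 and 7.6 (transgenic) and 9.69 and 8.73 (transgenic mdx). It was higher in transgenic mdx than in mdx by 1.34 ± 0.33 (adjusted p = 0.0392) and than in wild type by 2.26 ± 0.33 (adjusted p = 0.00252), with mdx and transgenic overlapping in between. Parp14 passed in the second of these comparisons at 1.23 ± 0.28 (adjusted p = 0.028), and Trim25, Dtx3l and Parp9 passed in none. Of the 4 remaining genes, Rtp4, a chaperone of receptors at the cell surface, passed in 4 comparisons. It read 7.08 and 6.95 (wild type), 8.30 and 8.44 (mdx), 8.05 and 8.05 (transgenic) and 9.17 and 9.11 (transgenic mdx), without overlap between groups. The differences from wild type were 1.36 ± 0.18, 1.04 ± 0.18 and 2.12 ± 0.18 (adjusted p = 0.00402, adjusted p = 0.0104 and adjusted p = 0.000121). Xaf1, Ifi35 and Sp100 passed in no comparison, which with Dtx3l, Eif2ak2, Irf9, Parp9, Samhd1 and Trim25 makes 9 members that never passed. Their differences between transgenic mdx and wild type ran from -0.09 for Sp100 to 1.23 for Xaf1.

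The ligands themselves gave no call. Of 10 interferon genes measured, 9 type I and Ifng, 0 passed in each comparison. At an unadjusted p under 0.05, 1 of the 10 was lower in transgenic against wild type (6.27% of all genes, limma). In transgenic mdx against transgenic 1 was higher at that level, Ifng (0.76 ± 0.31), where 2.75% of all genes were higher (limma). A count of 1 in 10 does not set the ligands apart from all genes. Ifnb1 read 3.25 to 3.68 on the 8 arrays of the first set and Ifng 3.39 to 4.61. All but Ifnz lay below the median of all genes on each muscle array. Of 15 receptor and proximal signalling genes, the kinase gene Jak2 was lower in mdx by 1.23 ± 0.23 and in transgenic muscle by 1.13 ± 0.23 against wild type (adjusted p = 0.0164 and adjusted p = 0.0273). Ptpn6, a phosphatase of blood cells, was higher in mdx by 2.17 ± 0.28 (adjusted p = 0.00383) and lower in transgenic mdx than in mdx by 1.30 ± 0.28 (adjusted p = 0.0246). Isg15 was not analysed here, because its probe set carries several symbols.

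Among 36 other interferon-stimulated genes, 8 were higher and 1 lower in mdx, 0 passed in transgenic, 6 were higher and 1 lower in transgenic mdx against mdx, and 11 were higher and 0 lower in transgenic mdx against wild type. In that order 3.75%, 2.12%, 3.97% and 4.91% of all genes passed as higher, and 1.69%, 1.03%, 2.11% and 2.36% as lower. The 1 lower of 36 therefore does not set the list apart. The same shares apply to the pathway and marker lists that follow. In transgenic against wild type 8 of the 36 were higher at an unadjusted p under 0.05 and 0 lower (7.94% and 6.27% of all genes, limma). Cmpk2, a mitochondrial nucleotide kinase, was higher in transgenic mdx muscle by 2.08 ± 0.35 against mdx and by 2.68 ± 0.35 against wild type (adjusted p = 0.0087 and adjusted p = 0.00137). Gbp6 and Gbp7 were higher in transgenic mdx than in mdx, by 2.04 ± 0.37 and 1.81 ± 0.33 (adjusted p = 0.0129 and adjusted p = 0.0125). Gbp7 read 11.25 and 11.21 (wild type), 10.41 and 9.41 (mdx) and 12.01 and 11.44 (transgenic mdx), so mdx was the lowest of these groups. Of the 12 genes of MHC class I processing, 5 were higher in mdx, 0 in transgenic and 3 in transgenic mdx, each against wild type. Between transgenic mdx and mdx 0 passed. At an unadjusted p under 0.05, 9 were higher and 0 lower in mdx against wild type (11.7% and 8.63% of all genes, limma). In transgenic mdx against mdx, 6 were lower and 1 higher at that level (9.39% and 11.7% of all genes, limma). The medians of these 12 genes against wild type were 1.10, 0.34 and 0.60, with 11, 11 and 10 of 12 above 0. In transgenic mdx against mdx 3 of 12 lay above 0. Tap1, the peptide transporter, was higher by 1.83 ± 0.21 in mdx and by 1.5 ± 0.21 in transgenic mdx (adjusted p = 0.003 and adjusted p = 0.0023). Of 17 genes that sense infection upstream of interferon, 5 were higher in mdx and 4 in transgenic mdx against wild type, among them Myd88 in both (1.84 ± 0.26 and 1.36 ± 0.26, adjusted p = 0.00528 and adjusted p = 0.0122), and Tlr4 was the 1 that passed in transgenic mdx against mdx (1.93 ± 0.39, adjusted p = 0.0199).

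Markers of immune cells moved with some of these groups. The summed intensity of 19 macrophage and monocyte markers was 10545 and 12528 (wild type), 42035 and 44892 (mdx), 15323 and 23099 (transgenic) and 23173 and 23654 (transgenic mdx), and 14 of the 19 were higher in mdx against wild type, 3 in transgenic and 8 in transgenic mdx. Against mdx, 6 of 19 were lower in transgenic mdx and 0 higher, while 13 members were higher. Irf1, like the macrophage markers, was highest in mdx, and the part of these cells in the members' levels was not tested. Of 12 T and NK cell markers, Cd3e and Gzma were higher in mdx and in transgenic mdx against wild type and 0 passed in transgenic. The summed intensity of 6 neutrophil markers was 10104 in transgenic replicate 1, against 235 to 1324 on the other 7 arrays of the set. Without that array 2 of the 9 transgenic calls were kept, and without wild-type replicate 1 or 2 the numbers were 1 and 3. The part of neutrophils in the members' levels was not tested. Plasmacytoid dendritic cells, which can make large amounts of interferon, were represented by 6 markers, of which Bst2, itself a member, was the 1 that passed in any comparison with wild type. B cell markers gave 0 calls of 4 in these comparisons and neutrophil markers 1 of 6, Csf3r in mdx (1.54 ± 0.34, adjusted p = 0.0282). Endothelial markers gave 0 of 10 in mdx and in transgenic mdx muscle 3 of 10 were lower than in mdx and 2 lower than in wild type, and their summed intensity was 5378 to 6047 in wild type and mdx and 2853 to 3632 in the groups with the transgene.

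Treatment of mdx muscle with AAV-Galgt2 gave 0 calls among the 37 members, as among all genes, where 0% passed in either direction. The delivered gene B4galnt2, higher by 5.78 ± 0.91, did not pass either (adjusted p = 0.233, limma). The 0 calls therefore do not show that the members were unchanged. At an unadjusted p under 0.05, 3 members were higher and 0 lower, Stat2, Oas3 and Oas2, against 5.91% and 2.36% of all genes (limma). The median difference was 0.20, against 0.03 over all genes, and 30 of 37 lay above 0 (54.3% of all genes). In 19 of 37 both AAV-Galgt2 arrays lay above both PBS arrays (25.3% of all genes) and in 0 below (18.6%). This lean depended on scaling. After a shift that gave all arrays one median, the difference was above 0 in 21 of 37 with a median of 0.02, the median of all genes moved to -0.15, and 15 members were separate upward (13% of all genes) and 4 downward (33.6%).

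Oas3 read 7.36 and 7.61 after AAV-Galgt2 and 4.34 and 6.46 after PBS, a difference of 2.08 ± 0.57 (adjusted p = 0.39), and it passed without PBS replicate 2, at 3.14. Stat2 read 6.61 and 6.43 after AAV-Galgt2 and 5.30 and 5.70 after PBS, a difference of 1.02 ± 0.25 (adjusted p = 0.361). Oasl1 read 6.68 and 6.60 against 4.82 and 6.49, Oasl2 7.58 and 7.26 against 6.2 and 6.72, and Dhx58 5.48 and 6.08 against 4.45 and 5.35. These 5 had the largest differences, each with both treated arrays above both PBS arrays, and PBS replicate 1 was the lowest array for all 5. Of the 9 genes called in transgenic against wild-type muscle, Stat2 and Oasl1 were among these 5. Mx1 read 9.16 and 9.20 after AAV-Galgt2 and 7.86 and 8.80 after PBS, a difference of 0.85 ± 0.40 with separate arrays. Ifih1 read 8.81 and 8.48 against 8.22 and 8.24, also separate, a difference of 0.41 ± 0.43. Differences were 0.49 for Cxcl10, 0.45 for Oas2 and 0.19 for Rtp4, each with separate arrays, and for Rsad2 and Ifit1, whose arrays overlapped, 0.19 and -0.01. For Dhx58 and Rsad2 the several probe sets of the gene differed in direction in this comparison. The transgene and the virus were not tested against each other, since the array medians of the 2 sets differed and levels were compared within a set. The macrophage sum was 17231 and 20444 after AAV-Galgt2 and 16899 and 24353 after PBS, overlapping.

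**Figure D4:**
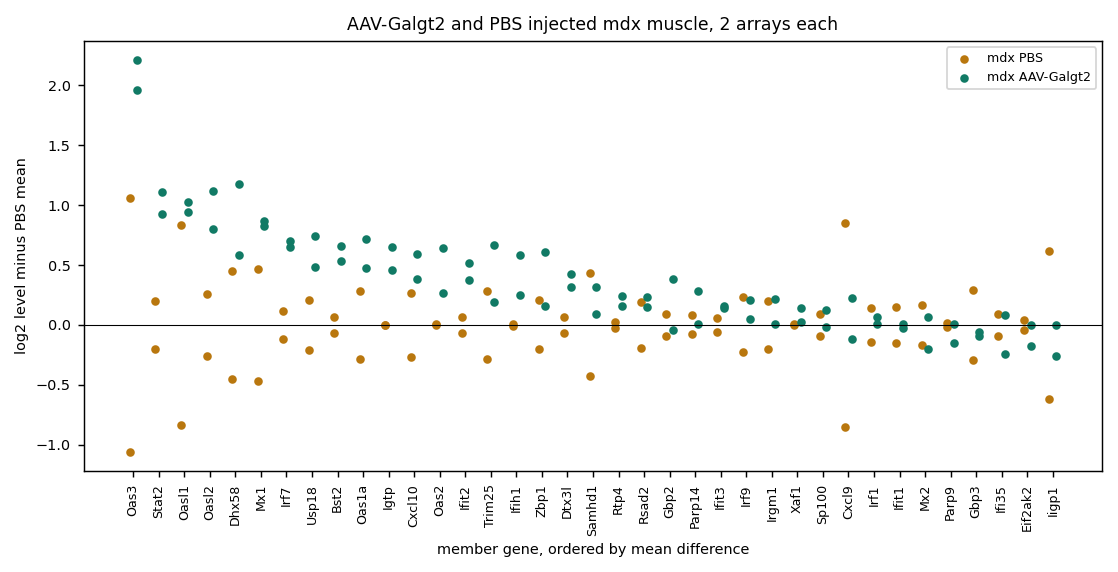
Log2 level of the 37 genes on the 4 arrays of the second set, each minus the mean of the 2 PBS arrays (y axis), ordered by the mean difference (x axis); points are single arrays of AAV-Galgt2 (green) or PBS (orange) treated mdx muscle. Oas3 lies farthest from 0, at a mean difference of 2.08, the PBS points of Oas3, Oasl1, Cxcl9 and Iigp1 are the most spread, and 30 of 37 mean differences lie above 0.

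In the cell lines most members were at low levels. Between 10 and 14 of the 37 lay above the median of all genes on a cell line array, against 23 to 35 on a muscle array. Mx1 read 3.58 to 4.03, Cxcl10 4.35 to 4.96 and Cxcl9 3.26 to 3.48 over the 4 arrays. Dtx3l, Trim25, Ifi35, Eif2ak2, Samhd1 and Irf1 were among those above the median on all 4, with Irf1 at 8.62 to 8.96. With 1 array per condition there is no test, and a member was counted where it differed at least 2-fold with the higher level above the array median. The C2C12 pair went against its labels: on the array labelled myotubes 0 of 12 myotube genes were counted higher and 6 lower than on the array labelled myoblasts, and 4 of 8 cycling myoblast genes were higher. The C2C12-Galgt2 pair went as labelled, with 5 of 12 myotube genes higher and 5 of 8 cycling genes lower on the array labelled myotubes.

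Few members were counted there. Between the C2C12 arrays labelled myotubes and myoblasts, Rtp4 (7.65 and 6.34) and Xaf1 (9.11 and 7.47) were higher and Igtp (6.81 and 7.97) lower on the first, where 2.85% of all genes were counted higher and 3.37% lower. Ifit1 (6.14 and 4.45), Ifih1 and Rsad2 (6.69 and 5.47) were also over 2-fold higher on the first, by 1.69, 1.48 and 1.22. They lay below the median of all genes on both arrays and so were not counted. Between the C2C12-Galgt2 arrays labelled the same way 0 members were counted, where 2.12% and 1.57% of all genes were. Igtp differed by 1.04 there (6.70 and 5.66), also below the median. With Galgt2 against without it, Igtp was lower between the arrays labelled myoblasts (5.66 and 7.97, a difference of -2.31), where 1.91% of all genes were counted higher and 2.56% lower. Between those labelled myotubes Xaf1 was lower (7.24 and 9.11, a difference of -1.87), where 3.62% were counted higher and 3.75% lower. Ifih1, which stood apart in muscle with the transgene, read 5.06 and 6.54 in C2C12 and 4.96 and 5.65 in C2C12-Galgt2 cells on the arrays labelled myoblasts and myotubes. With the C2C12 arrays exchanged, an alternative chosen after the data were seen, the line's difference for Ifih1 was -1.58 in myoblasts and 0.59 in myotubes. Xaf1 (-2.25) was then lower and Dtx3l (1.02) and Parp9 (1.10) higher in myoblasts, and Igtp (-1.27) was lower and Ifit3 (1.05) and Rtp4 (1.19) higher in myotubes, so which members were counted depended on the labels of the C2C12 pair, and Xaf1 differed by -0.23 in myotubes. B4galnt2 read 4.58 and 4.81 in C2C12 and 9.76 and 10.82 in C2C12-Galgt2 cells.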

How the data were processed

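Total RNA of mouse gastrocnemius muscle and C2C12 cells was amplified, labelled and read on Affymetrix arrays of 45101 probe sets. The deposited values are linear intensities, which the authors made with GCOS and RMA per the submitters' processing notes; which tool made which array set, and whether the sets were normalized together, is not given in the sources used here. From them log2 values were computed here, since the deposited table holds no log2 values per the file headers. Probe sets with 1 gene symbol (34958; 932 had several and 9211 none) were reduced to the brightest per gene over the 12 muscle arrays.

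Group means of all 12 muscle arrays were fitted per gene with limma 3.58.1 in R 4.3.3 (lmFit, eBayes, two-sided), with Benjamini-Hochberg adjustment over 18194 genes and a threshold of 0.05. Cell line differences, 1 array each, had no test. On simulated data of 18194 genes for mdx against wild type, 77% of genes changed by 2 log2 units and 22% of those changed by 1 were recovered. The alternatives were the array set fitted alone, a common median, quantile normalization, an offset of 32, a filter on dim genes, other probe set rules, the replicate number as a block, array weights, leaving out each array and, chosen after seeing the data, the C2C12 arrays exchanged. Array weights came out equal for both arrays of each group, 0.911 in transgenic mdx, so that setting could not weigh 1 replicate below the other. The members and lists were chosen with earlier results of these data known. Values by array are given for members called in at least 2 comparisons of the first set, or among the 5 largest in the AAV-Galgt2 comparison or the cell lines, and up to 4 called genes are named from each pathway or marker list; a few others are named to account for all members or to set beside a result. Other tables used Python 3.11.15 with pandas 2.3.3.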

Additional observations from a re-analysis of the deposited data

How the results depend on the processing

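None of the differences that passed changed sign in the alternatives run, each of which gave a gene 1 value per comparison. The alternative that fitted every probe set on its own kept the one with the largest t in size, so it could hardly reverse a call. Single probe sets of a called gene did differ in sign, as for Dhx58 in transgenic mdx against wild type. Leaving out each of the 12 muscle arrays in turn gave 3 to 11 calls for mdx against wild type, 1 to 11 for transgenic against wild type, 9 to 14 for transgenic mdx against mdx, 0 to 1 for transgenic mdx against transgenic, 17 to 29 for transgenic mdx against wild type, 0 for the interaction, 0 to 1 for AAV-Galgt2 against PBS and 0 to 2 for transgenic against mdx. In the other alternatives the calls were 6 to 11 of a main 9 for mdx and 6 to 13 of 9 for transgenic against wild type, 11 to 15 of 13 for transgenic mdx against mdx and 23 to 29 of 27 for transgenic mdx against wild type, and 1 to 3 of 2 for transgenic against mdx. Of 65 gene results, 13 weakened with the array set fitted alone, 10 with the block, 9 with log2(value + 32), and at most 5 in each other alternative. Transgenic mdx against transgenic, with 0 calls, gave 1 with log2(value + 32) (Rtp4) and 1 each with the mean of all probe sets, without _x_at and _s_at probe sets and with array weights (Ifit3). Transgenic against mdx fell from 2 to 1 when the array set was fitted alone and to 1 with array weights. In the cell lines, where the higher level had to lie above the array median, C2C12 myotubes minus myoblasts, as labelled, had 3 members counted. It had 5 with arrays shifted to one median and 7 at 1.5-fold. The same difference in C2C12-Galgt2 had 0, 1 with the mean of all probe sets and 4 at 1.5-fold. C2C12-Galgt2 minus C2C12 had 1 in myoblasts, 6 at 1.5-fold and 3 with the C2C12 arrays turned, and 1 in myotubes, 0 with the mean of all probe sets, 4 at 1.5-fold and 3 with the arrays turned. The cause of these changes was not tested.

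The correlation of same-numbered arrays' deviations ran from -0.439 (wild type and mdx) to 0.542 (wild type and transgenic) and was not over 0.1 for every pair of groups, so the numbers were not taken to pair the samples. With the replicate number as a block the calls were 6, 8, 11, 0, 24, 0, 0 and 2 in the order of comparisons above.

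The median shift moved the median of all genes to -0.28 in mdx and transgenic mdx against wild type and to -0.22 in transgenic against wild type, and the split of all calls in mdx went from 682 higher and 308 lower to 540 and 1080, and to 571 and 429 after quantile normalization. In transgenic mdx against wild type it went from 894 and 430 to 631 and 1048, and to 726 and 588. In transgenic against wild type it went from 386 and 187 to 314 and 327. The members' medians under the shift were 0.64, 0.68 and 1.80 in mdx, transgenic and transgenic mdx against wild type, with 28, 34 and 35 of 37 above 0. With 2 arrays a group, changes of 1 log2 unit were mostly missed on simulated data.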
